A study of Arabidopsis thaliana with 12 samples.

Results

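Of the Arabidopsis thaliana genes of peroxide, ascorbate and superoxide defence on the lists used here, 4 are described, each with a probe that carries 1 gene name. They are AT3G52960, a type II peroxiredoxin of the plastid, SRX, sulfiredoxin, GLDH, the enzyme of the last step of ascorbate synthesis, and CCS, the copper chaperone of superoxide dismutase. They were chosen by function and by having such a probe, 4 of 691 gene names carried by single-name probes and 4 of 3439 probes in all. The list genes NTRC and AT2G04700 also had such a probe, were not among the 4 chosen, and are described after them. Both groups were wild-type plants of the ecotype Columbia 0. The group ML_20C held 6 arrays of total RNA from plants that had grown in medium light at 20 °C. The group ML_4C held 6 arrays from plants given 24 h of medium light at 4 °C, which the submitters class as photoinhibitory. The labels name no tissue, plant age or light intensity, and do not say whether the arrays of a group came from separate plants.

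Light absorbed by chloroplasts in excess of what carbon fixation can use passes electrons to oxygen, which gives superoxide and then hydrogen peroxide. Superoxide dismutases convert superoxide to peroxide, and the copper and zinc forms receive their copper from CCS. Peroxide is then removed by ascorbate peroxidases, which use the ascorbate that GLDH helps to make in mitochondria, and by peroxiredoxins, thiol enzymes that are reduced again by thioredoxins or glutaredoxins. SRX is known for returning overoxidized peroxiredoxins of the 2-Cys class to their active form.

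Each array gave 1 deposited intensity per probe, already scaled so that array means agreed within 5%. Arrays 1 and 2, 3 and 4, and 5 and 6 of a group resembled each other, so each such pair was counted as 1 sample, with n = 3 pairs per group for means and SDs. The likeness was weaker at 4 °C, where deviations of the 2 arrays of a pair correlated at r of 0.20 to 0.43, against 0.79 to 0.92 at 20 °C. Since no label speaks of separate plants, a p-value over pairs reflects how far these pairs scatter, and that scatter may be technical. Changes are log2 differences, 4 °C minus 20 °C, tested with limma over the 12 arrays and again over the pair means, at an adjusted p of 0.05 (Benjamini-Hochberg over all features). Leaving out probes at 0 on every array, 3378 remained, and their median log2 change was -0.74 as deposited. It was 0.17 after median centring, 0.05 after quantile normalization and -0.0004 after cyclic loess, so each change is given under these 4 scalings. The median intensity of an array was 0.536 to 0.569 at 20 °C and 0.276 to 0.315 at 4 °C, so the array medians did not overlap either. The share of all probes whose groups did not overlap, in deposited intensity or in place within the array, was not counted. A lack of overlap given below is therefore a description and not a result particular to a gene. As a check of the labels, 2 probes that carry several names, all of them on the list of cold markers, were called higher at 4 °C in all 8 combinations of scaling and sample unit. These 8 fits called 6.87% to 39.5% of all probes higher. The deposited intensity of the 2 probes was 1.18 ± 0.137 and 1.33 ± 0.147 at 20 °C and 11.9 ± 0.667 and 11.4 ± 0.954 at 4 °C (SD, n = 3). In bulk RNA, fewer cells of a type and less RNA per cell cannot be told apart. No leaf marker and 1 of 9 markers of other organs had a single-name probe. That gene was SPL, a regulator of sporocyte formation, at 0.691 ± 0.0269 and 0.287 ± 0.0154. It was called lower in 6 of the 8 fits, which called 18.9% to 59.9% of all probes lower. Its part in the results on the 4 genes was not tested.

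As deposited, all 4 genes were called lower at 4 °C, with a median log2 change of -1.37. They were called in the 12-array fit, where 59.9% of all probes were called lower and 12.4% higher, and in the fit on pair means, where 49.6% were lower and 6.87% higher. Against that background the count of 4 is not a result about these genes. After median centring 2 of the 4, AT3G52960 and SRX, were called lower in each fit, against 26.5% of probes lower and 39.5% higher over 12 arrays and 18.9% and 30.0% over pair means. After quantile normalization AT3G52960 was the 1 member called, against 30.4% lower and 32.1% higher over 12 arrays and 20.5% and 19.5% over pair means. After cyclic loess AT3G52960 and SRX were called over 12 arrays, against 30.7% lower and 30.8% higher, and AT3G52960 over pair means, against 20.8% and 19.1%. No member was called higher in any of the 8 fits.

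AT3G52960 encodes a plastid peroxidase that acts on hydrogen and organic peroxides. At 20 °C its intensity on arrays 1 to 6 was 3.18, 3.04, 2.34, 2.19, 3.47 and 3.36, and at 4 °C it was 0.941, 0.828, 0.972, 1.01, 1.04 and 0.862. Arrays 3 and 4 were the lowest at 20 °C, and the groups did not overlap, since the lowest array at 20 °C, at 2.19, lay above the highest at 4 °C, at 1.04. The mean fell from 2.93 ± 0.593 to 0.943 ± 0.0545 (SD, n = 3). The log2 change was -1.62 ± 0.19 (SE over pair means, 95% interval -2.09 to -1.15, limma adjusted p = 0.0013 over pair means and 3.7e-07 over 12 arrays), which is a 3.07-fold decrease. The 3 pairs at 20 °C spread over 0.59 on the log2 scale and those at 4 °C over 0.17, less than the change.

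AT3G52960 was called lower under all 4 scalings. Its log2 change over pair means was -0.70 after median centring (adjusted p = 0.034), -1.52 after quantile normalization (adjusted p = 0.0060) and -1.60 after cyclic loess (adjusted p = 0.0033). Its log2 change minus the median over all probes was -0.87 as deposited and -1.57 after quantile normalization. As deposited 22.7% of probes had a lower log2 change than AT3G52960, and after quantile normalization 7.84% did. Its place within each array does not depend on a scale factor. Quantile normalization keeps these places, so they are not separate support for the change after it. At 20 °C the probe was brighter than 92.2% to 96.3% of the probes of its array, and at 4 °C brighter than 78.1% to 84.1%, with no overlap between the groups. Such a place compares the same probe across arrays and is not a measure of transcript abundance against other genes.

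**Figure D1:**
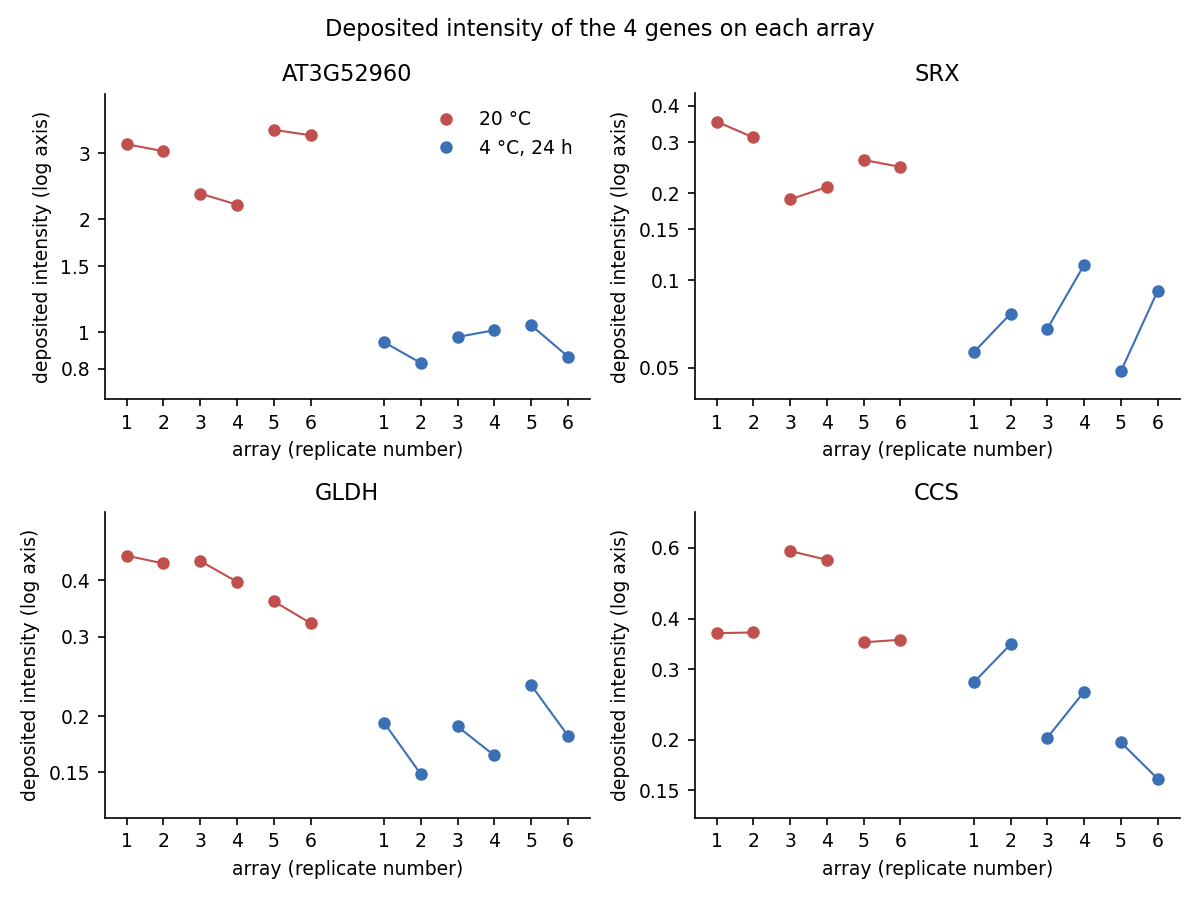
Deposited intensity (log axis) of the 4 genes on each array, red for 20 °C and blue for 24 h at 4 °C, with lines joining the 2 arrays of a pair. AT3G52960 runs from 2.19 to 3.47 at 20 °C and from 0.828 to 1.04 at 4 °C, whereas for CCS the lowest array at 20 °C, 0.350, lies next to the highest at 4 °C, 0.346.

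SRX reduces the sulfinic acid form of 2-Cys peroxiredoxins, using ATP. Its intensity was 0.353, 0.311, 0.190, 0.210, 0.260 and 0.246 on arrays 1 to 6 at 20 °C and 0.0566, 0.0769, 0.0682, 0.113, 0.0487 and 0.0921 at 4 °C. All 6 arrays at 4 °C lay below all 6 at 20 °C, with arrays 1 and 2 highest at 20 °C and array 4 highest at 4 °C. The mean went from 0.262 ± 0.0664 to 0.0760 ± 0.0129 (SD, n = 3). The log2 change was -1.81 ± 0.24 (SE over pair means, 95% interval -2.40 to -1.23, limma adjusted p = 0.0018 over pair means and 1.3e-05 over 12 arrays), which is a 3.51-fold decrease. SRX was among the 860 probes with the lowest mean intensity, and the 2 arrays of a pair differed by up to 0.92 on the log2 scale, against at most 0.38 for the other 3 members. The pair means of SRX at 4 °C spread over 0.41, so the SD over pairs leaves out much of the scatter between arrays there.

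The size of the SRX change depended on the scaling, and the call did as well. With 0.0680 added to every deposited intensity before log2, the change over 12 arrays was -1.19 and was still called. It was -0.90 after median centring (pair means, adjusted p = 0.031), -0.52 after quantile normalization (adjusted p = 0.18) and -0.60 after cyclic loess (adjusted p = 0.097). The 95% interval after quantile normalization ran from -1.21 to 0.17, which holds both no change and a fall as large as that after median centring. Within arrays, SRX was brighter than 12.5% to 32.1% of probes at 20 °C and than 9.65% to 17.6% at 4 °C. These places overlapped, because arrays 3 and 4 at 20 °C, at 12.5% and 13.6%, stood below 3 of the arrays at 4 °C.

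GLDH oxidizes L-galactono-1,4-lactone to ascorbate at the inner mitochondrial membrane, and it is also known as an assembly factor of respiratory complex I. Its intensity was 0.454, 0.436, 0.442, 0.397, 0.360 and 0.322 at 20 °C and 0.193, 0.149, 0.190, 0.164, 0.234 and 0.181 at 4 °C. The deposited intensities of the groups did not overlap, as the array medians did not. The lowest array at 20 °C was 1.37 times the highest at 4 °C. GLDH went from 0.402 ± 0.0544 to 0.185 ± 0.0198 (SD, n = 3), which left 46.1% of the 20 °C intensity. The log2 change was -1.12 ± 0.17 (SE over pair means, 95% interval -1.53 to -0.71, adjusted p = 0.0027 over pair means and 6.1e-06 over 12 arrays) and the fold was 2.18.

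The call of GLDH did not hold under the other 3 scalings. The log2 change of GLDH over pair means was -0.21 after median centring (95% interval -0.70 to 0.28), -0.082 after quantile normalization (-0.55 to 0.38) and -0.057 after cyclic loess (-0.51 to 0.39), with adjusted p-values of 0.41, 0.75 and 0.83. GLDH was brighter than 26.1% to 42.2% of probes at 20 °C and than 25.4% to 43.2% at 4 °C, so its range of places at 20 °C lay within that at 4 °C. The intervals hold 0 as well as moderate decreases, and none of them holds the deposited change of -1.12.

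CCS delivers copper to the copper and zinc superoxide dismutases of the cytosol and the plastid. Its intensity was 0.368, 0.370, 0.589, 0.561, 0.350 and 0.355 at 20 °C and 0.278, 0.346, 0.203, 0.264, 0.197 and 0.160 at 4 °C. Arrays 3 and 4 stood above the other 4 at 20 °C, arrays 1 and 2 held the highest and arrays 5 and 6 the lowest pair mean at 4 °C, and the groups were separated by a factor of 1.01. The mean went from 0.432 ± 0.124 to 0.241 ± 0.0670 (SD, n = 3), a log2 change of -0.85 ± 0.29 (SE over pair means, 95% interval -1.57 to -0.13, adjusted p = 0.049 over pair means and 0.0031 over 12 arrays). CCS had the widest relative spread at 4 °C of the 4 genes, with a coefficient of variation of 28.7% at 20 °C and 27.8% at 4 °C.

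The call of CCS was the least stable. Over pair means it was lost without any of 5 of the 6 pairs, with adjusted p-values from 0.072 to 0.12, and kept without arrays 1 and 2 at 4 °C (adjusted p = 0.033). CCS had a log2 change over pair means of 0.063 after median centring and 0.12 after quantile normalization (95% interval -0.55 to 0.79). It was 0.18 after cyclic loess, and none of these was called. Minus the median over all probes, these changes were -0.11, 0.074 and 0.18. Within arrays CCS was brighter than 29.2% to 52.0% of probes at 20 °C and than 30.3% to 52.2% at 4 °C. CCS was brighter than the median probe of its array on array 3 at 20 °C, by a factor of 1.06, and on array 2 at 4 °C, by 1.11.

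**Figure D2:**
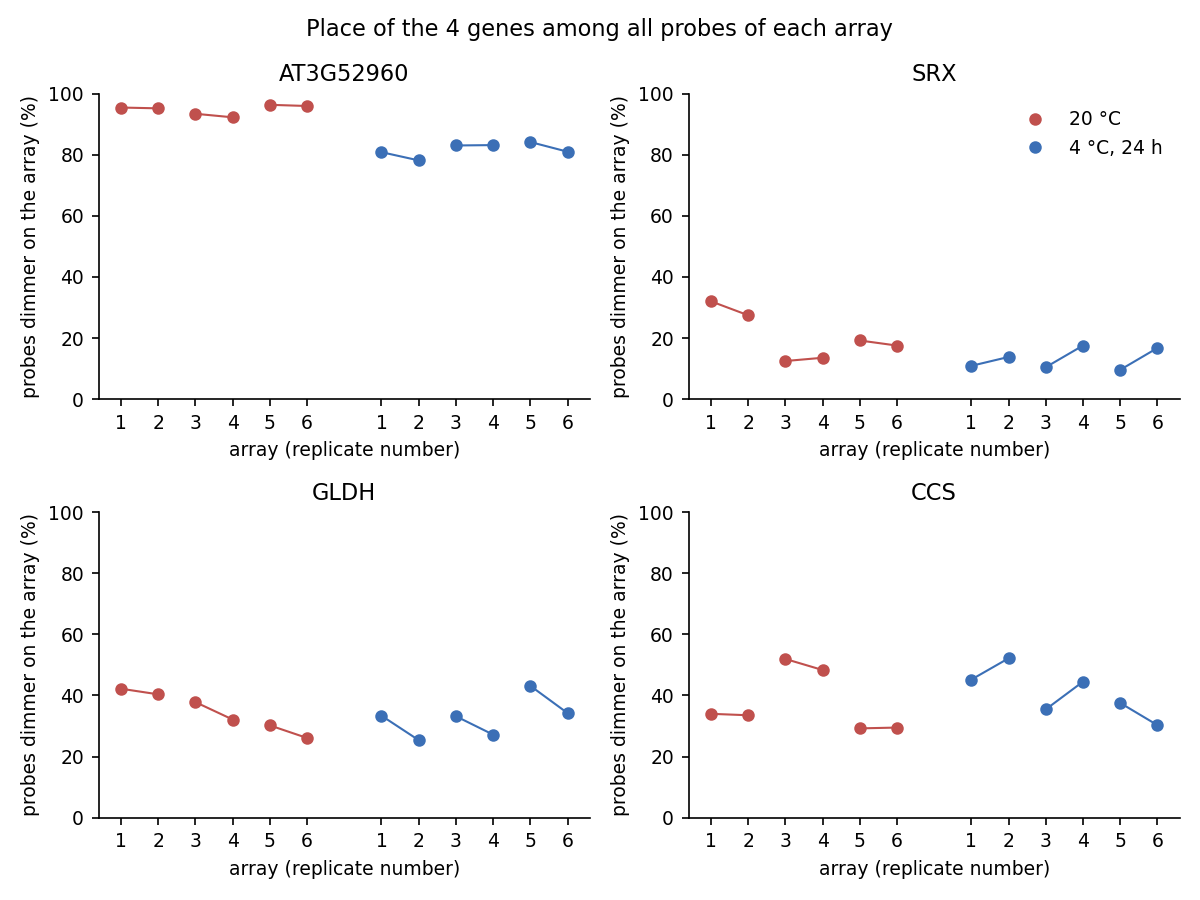
Percent of the 3378 counted probes that were dimmer than each of the 4 genes (y axis), by array, red for 20 °C and blue for 24 h at 4 °C, lines joining the 2 arrays of a pair. The places of AT3G52960 drop from 92.2% or more to 84.1% or less, while those of GLDH and CCS cover similar ranges in both groups.

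**Figure D3:**
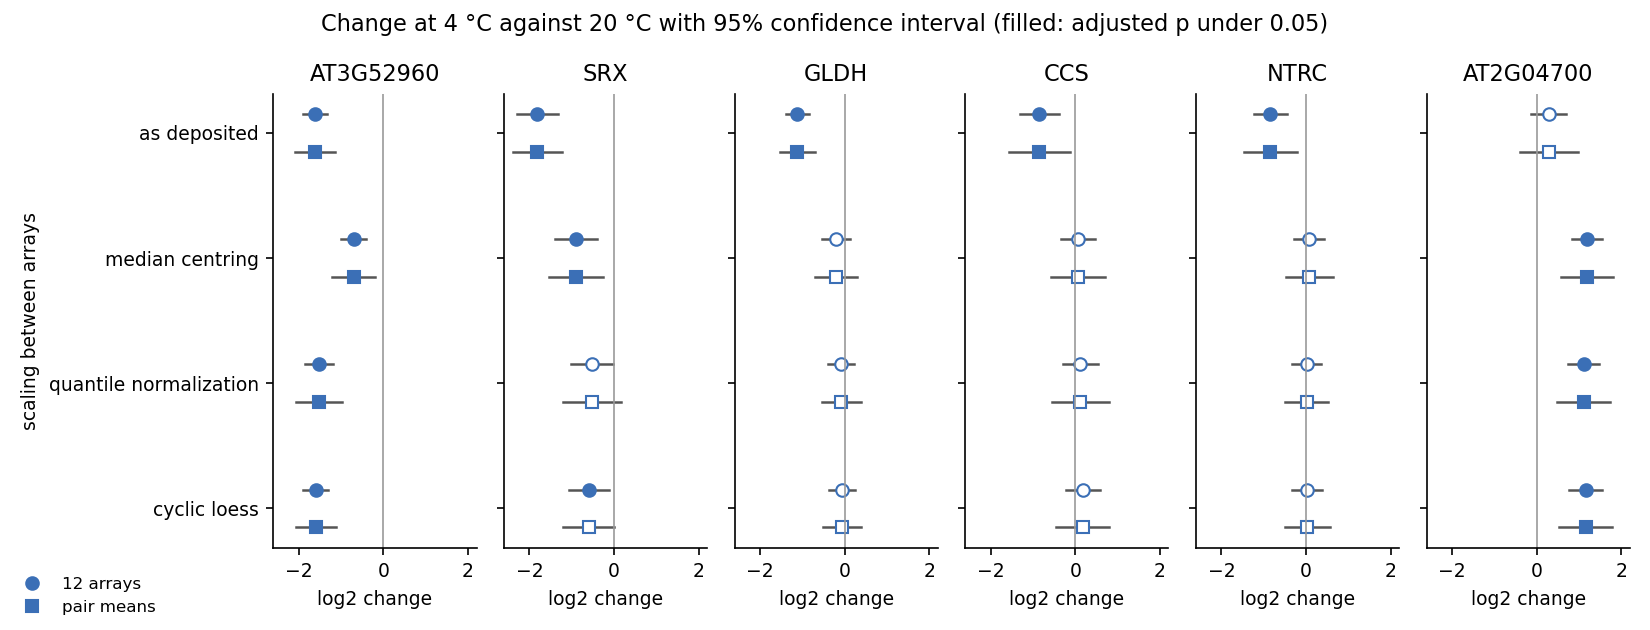
Log2 change at 4 °C against 20 °C (x axis) with its 95% confidence interval under 4 scalings (y axis), circles for 12 arrays and squares for pair means, filled where the adjusted p was under 0.05. AT3G52960 lies below 0 throughout, from -1.62 to -0.70, CCS and NTRC move from -0.85 and -0.84 to values just above 0, and AT2G04700 moves from 0.28 to between 1.11 and 1.19.

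Changes of the members were next compared with each other on the same array, where a common scale factor of the array cancels. The 6 ratios between the 4 genes were compared with two-sided exact permutation tests over the 12 arrays. The log2 ratio of AT3G52960 to CCS went from 2.78 ± 0.70 to 2.01 ± 0.46 (SD over 3 pairs), a change of -0.77 (exact permutation p = 0.039, adjusted p = 0.068 over the 6 ratios). In the same exact permutation test, that of SRX to CCS changed by -0.96 (p = 0.028), that of SRX to GLDH by -0.69 (p = 0.045) and that of AT3G52960 to GLDH by -0.50 (p = 0.019), each with the same adjusted p of 0.068. As deposited, AT3G52960 and SRX thus had the more negative log2 change in each of these 4 ratios, but no ratio passed after adjustment. Over 3 pairs against 3 the exact p-values were 0.20 to 0.60, and 0.10 is the smallest that this design allows. With 0.0680 added to every intensity before log2, SRX over GLDH changed by -0.30 and SRX over CCS by -0.50. AT3G52960 over GLDH and over CCS changed by -0.66 and -0.86 there, and of these ratios only AT3G52960 over GLDH passed over single arrays.

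The other 2 ratios changed by less. AT3G52960 over SRX changed by 0.19 (exact permutation p = 0.42) and GLDH over CCS by -0.27 (exact permutation p = 0.33). The ratio of AT3G52960 to SRX turned with the scaling, to a change of -0.996 after quantile normalization (exact permutation test, adjusted p = 0.0087 over the 6 ratios). AT3G52960 over GLDH and over CCS changed by -1.44 and -1.64 there, each with an adjusted p of 0.0065 in the exact permutation test, and the other 3 ratios did not pass. As deposited and over single arrays, each pair was left out in turn. No ratio passed unless the pair left out was arrays 3 and 4 at 20 °C. Without them the ratios of AT3G52960 to GLDH and CCS and of SRX to GLDH and CCS changed by -0.71, -1.17, -0.90 and -1.36, with adjusted p-values of 0.014, 0.014, 0.029 and 0.019 in the exact permutation test. These p-values and those after quantile normalization permute single arrays. With pairs as the samples no ratio could pass under any scaling, since 0.10 is the smallest p of 3 pairs against 3 and fewer pairs allow none lower.

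**Figure D4:**
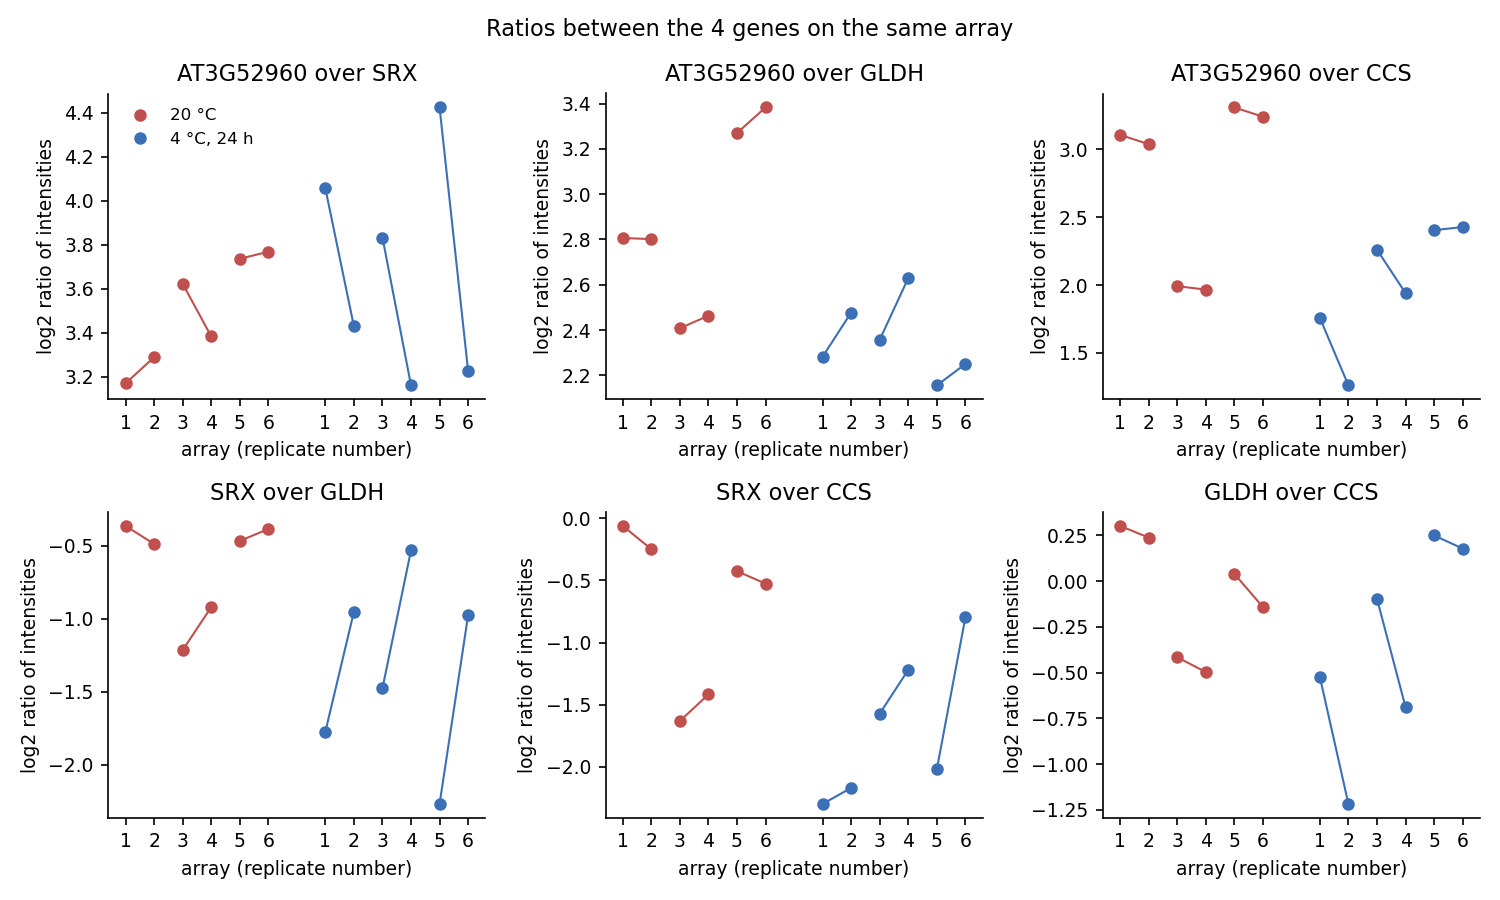
Log2 ratio of deposited intensities between 2 of the 4 genes on the same array (y axis), red for 20 °C and blue for 24 h at 4 °C, lines joining the 2 arrays of a pair. Arrays 3 and 4 at 20 °C lie apart from the other 4 at 20 °C in the ratios to CCS of AT3G52960 and SRX, and the 2 arrays of a pair at 4 °C lie far apart in the ratios of SRX with AT3G52960 and with GLDH.

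The pathway around these genes was sparsely covered. Of 118 loci on 9 lists of antioxidant, thioredoxin, tocopherol, copper and oxidative stress genes, 6 had a single-name probe, the 4 members, NTRC and AT2G04700. As deposited 5 of the 6 were called lower and 0 higher in each fit, where 59.9% of all probes were lower and 12.4% higher over 12 arrays and 49.6% and 6.87% over pair means. Their median log2 change was -0.99 against -0.74 for all probes. After quantile normalization 1 was called lower and 1 higher in each fit, against 30.4% and 32.1% of all probes over 12 arrays and 20.5% and 19.5% over pair means, with a median of -0.03 against 0.05. Catalases, glutathione peroxidases, enzymes of the ascorbate-glutathione cycle and superoxide dismutases themselves were on no probe with 1 name.

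NTRC is a plastid thioredoxin reductase with its own thioredoxin domain and is known as the main reductant of the 2-Cys peroxiredoxins. Its intensity ran from 0.508 to 0.788 at 20 °C with a median of 0.60, and from 0.235 to 0.506 at 4 °C with a median of 0.320. The groups met without overlapping, with arrays 1 and 2 the highest pair at 4 °C. Its log2 change of -0.84 ± 0.25 (SE over pair means, adjusted p = 0.032) was close to the median of all probes, and was 0.074, 0.017 and 0.030 after median centring, quantile normalization and cyclic loess, none of them called. NTRC was brighter than 44.8% to 65.8% of probes at 20 °C and than 43.3% to 64.4% at 4 °C.

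AT2G04700, entered on the thioredoxin list as FTRB, a chain of ferredoxin-thioredoxin reductase, was the list gene called higher, under 3 of the 4 scalings. Its intensity was 0.275, 0.304, 0.538, 0.512, 0.476 and 0.460 at 20 °C and 0.632, 0.610, 0.440, 0.476, 0.443 and 0.452 at 4 °C. The groups overlapped, with arrays 1 and 2 lowest at 20 °C and highest at 4 °C. As deposited the log2 change was 0.28 ± 0.28 (SE over pair means, adjusted p = 0.42), and without arrays 1 and 2 at 20 °C it was 0.02. It was called higher after median centring at 1.19, quantile normalization at 1.11 and cyclic loess at 1.15 (pair means, adjusted p = 0.011, 0.021 and 0.018). Within arrays AT2G04700 was brighter than 24.0% to 47.9% of probes at 20 °C and than 63.2% to 71.3% at 4 °C, with no overlap.

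A further 6 probes carried several gene names, all of them on the lists of the ascorbate-glutathione cycle or of thioredoxins and glutaredoxins, and are given by list and not by gene. As deposited 5 of the 6 were called lower over 12 arrays, where 59.9% of all probes were, and 4 over pair means, where 49.6% were, with log2 changes from -2.52 to -0.16. After quantile normalization 4 were called lower and 2 higher over 12 arrays, against 30.4% and 32.1% of all probes, and 2 lower and 1 higher over pair means, against 20.5% and 19.5%. The lowest change belonged to a probe of the ascorbate-glutathione list, which fell from 0.935 ± 0.133 to 0.164 ± 0.0145 (SD, n = 3) and was called lower in all 8 fits. A probe of the glutaredoxins was also called lower in all 8 fits, from 0.375 ± 0.0349 to 0.132 ± 0.00886. Another probe with the same names, at 0.299 ± 0.0345 and 0.266 ± 0.0262, was not called as deposited and was called higher in the other 6 fits.

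**Figure D5:**
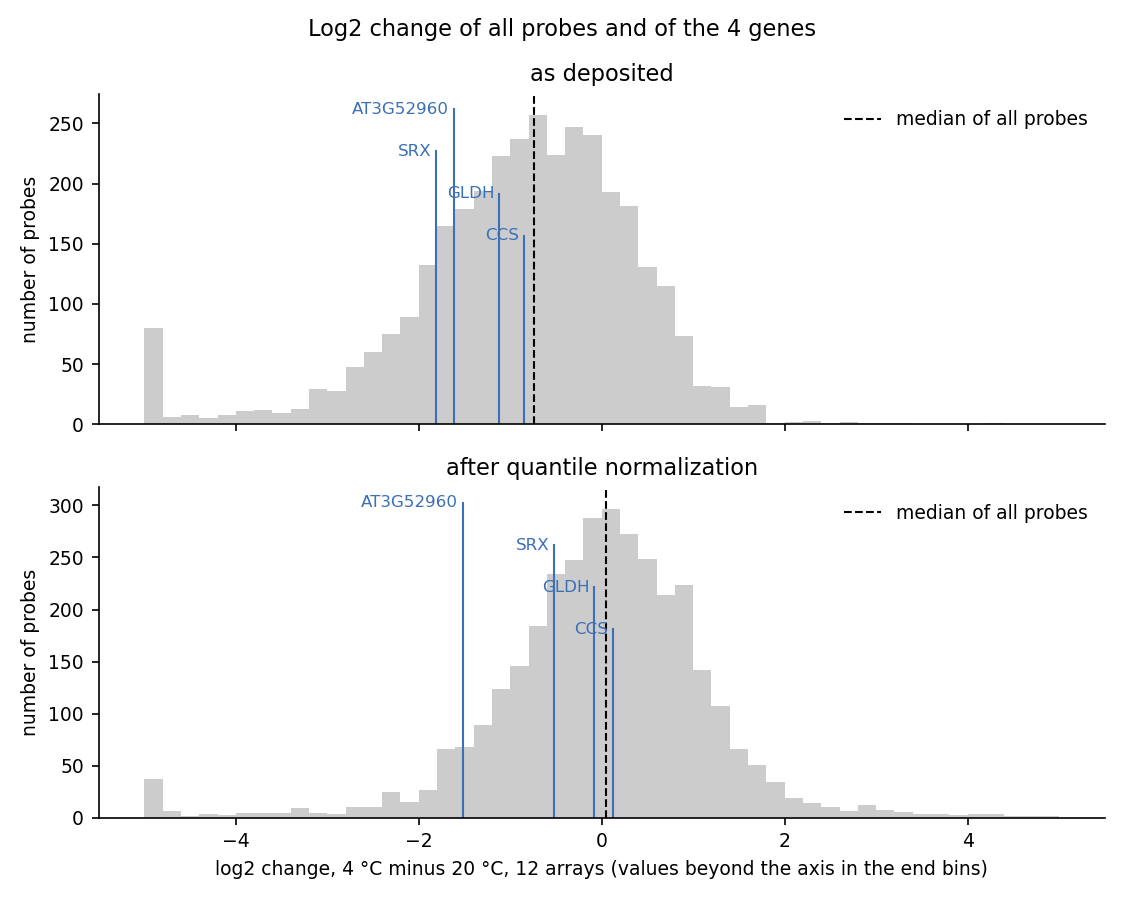
Number of probes (y axis) by log2 change over 12 arrays (x axis), as deposited and after quantile normalization, with the 4 genes marked and the median of all probes dashed. The deposited median is -0.74 and that after quantile normalization 0.05, and GLDH and CCS lie nearer to the median than the other 2 genes in both panels while AT3G52960 moves farther from it.

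For each member the 3 single-name genes with the most similar pattern over the 12 arrays were taken by Pearson's r of log2 deposited intensity, among 612 other genes above 0 on all arrays. The arrays share the difference between the groups and come in pairs, and the median r of all 612 genes was already 0.77 for AT3G52960, 0.76 for SRX and GLDH and 0.66 for CCS. For AT3G52960 these were AT3G15140, AT5G02050 and PRA1.B6, with r of 0.98 each and 0.93, 0.96 and 0.92 after quantile normalization, where the median gene had -0.11. For SRX they were AT2G36920, AT1G01250 and AT4G37230, with r of 0.98, 0.97 and 0.97 as deposited and 0.89, 0.80 and 0.80 after quantile normalization. For GLDH they were AT1G35210, AT3G53470 and TCP15, a TCP-family transcription factor, with r of 0.98, 0.97 and 0.97 falling to 0.78, 0.48 and 0.49. For CCS they were AT3G01360, AT1G67800 and AT1G08050, with r of 0.96 each and 0.70, 0.85 and 0.84 after quantile normalization. After quantile normalization the median gene had r of 0.01 for SRX, 0.08 for GLDH and 0.05 for CCS. The likeness was highest there for the 3 genes of AT3G52960 and lowest for 2 of the 3 genes of GLDH. These genes were picked on the same arrays, and r includes the difference between the groups. That difference was -1.52 for AT3G52960 and -0.08 for GLDH after quantile normalization, so the order of r between members is not read as a result.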

How the data were processed

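Total RNA of 12 samples was measured on arrays. The deposited intensity is linear and, as the values show, was scaled by the authors by a method that the labels do not name. The labels name no scanner or background correction either. Array means deviated by at most 3.35% from their overall mean, so intensities were used as deposited. They were taken to log2 after a value of 0 was replaced by the array's smallest positive value. Probes were named through the platform annotation and the RefSeq table of TAIR10.1, and of 692 probes with 1 name, 690 matched a locus. No coordinates, protein or promoter sequences were used here.

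Groups were taken from the sample titles and compared with limma 3.58.1 in R 4.3.3 (lmFit, eBayes, two-sided) on 3438 features, with the 2 probes of 1 gene averaged. Calls were counted over 3378, leaving out 60 at 0 on all arrays. Folds were obtained by raising 2 to the absolute log2 change. Among the 15 ways to pair 6 arrays, 1-2, 3-4 and 5-6 gave the highest ratio of mean square between pairs to that within, 11.8 at 20 °C and 5.07 at 4 °C (next 1.88 and 1.49). This pairing comes from the values and not from the labels. The 12-array fit is the main test. It understates p-values if a pair holds repeats of 1 extract. The number of arrays and pairs limits the precision.

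The members, lists and tests were chosen with earlier results of these data known. Named are the members, list genes with a single-name probe, and the 3 genes most like each member. SPL is named in addition, as the 1 measured organ marker. The fit was tested on simulated data. Alternatives were 3 other scalings, a fit without the 860 probes of lowest mean, 0.0680 added before log2, a trended and robust variance, a block for the replicate number, pair means, a random block for pairs, and fits without each pair in turn.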

Additional observations from a re-analysis of the deposited data

Results flagged for a closer look

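In 2 of the 30 groups of 6 arrays examined, 1 array stood apart from the other 5 by more than Dixon's 95% critical value, and chance flags about 1 group in 20. Neither belongs to the 4 members. A glutaredoxin probe with several names had 0.323 on array 2 at 4 °C against 0.245 to 0.270 on the others, and a probe of the ascorbate-glutathione list had 0.213 on array 4 at 4 °C against 0.143 to 0.161.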

How the results depend on the processing

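AT3G52960 was called lower under all 18 alternatives tried, with log2 changes from -1.79 to -0.70. SRX was called under 14 of 17, and lost the call at -0.52 after quantile normalization, with 12 arrays or pair means, and at -0.60 after cyclic loess of pair means. It was among the 860 dim probes and had no value without them. GLDH was called under 12 of 18. It was not called at -0.21 after median centring, -0.082 after quantile normalization and -0.057 after cyclic loess, over 12 arrays and over pair means alike. CCS turned above 0 in the same 6 fits, at 0.063, 0.12 and 0.18, and so did NTRC, at 0.074, 0.017 and 0.030. Leaving out 1 pair moved CCS between -1.05 and -0.63. Leaving out 1 pair in the fit on pair means, an alternative chosen after seeing the data, kept the calls of AT3G52960, SRX and GLDH every time and that of CCS in 1 of 6. How many of all probes those fits called was not counted. The count of 2442 probes called over 12 arrays became 1350 and 1349 with pair means after quantile normalization and cyclic loess.

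The ratio of AT3G52960 to SRX turned from 0.19 to -0.996 after quantile normalization, -0.997 after cyclic loess and -0.36 with the offset. The ratio of AT3G52960 to GLDH passed at -1.44, -1.54 and -0.66 in these settings, and that of AT3G52960 to CCS at -1.64 and -1.77 in the first 2 of them. Leaving out 1 pair gave ranges of -0.71 to -0.26 for AT3G52960 over GLDH, -1.17 to -0.52 for AT3G52960 over CCS, -0.90 to -0.54 for SRX over GLDH, -1.36 to -0.68 for SRX over CCS, -0.55 to -0.010 for GLDH over CCS and 0.060 to 0.32 for AT3G52960 over SRX. These tests permute single arrays. The causes of these changes were not tested.

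With the replicate number as a block, 2419 probes were called, 1995 of them lower and 424 higher. The 4 members and NTRC kept their lower calls, with an adjusted p of 0.0079 for CCS. With so many probes called lower in this fit, the kept calls are not a result particular to these genes. The block left no ratio past the threshold. Deviations of arrays with the same number in the 2 groups correlated from -0.23 to 0.14, and 0 of 6 arrays at 20 °C correlated best with their own number. The labels do not say what the number stands for, and whether arrays of the same number share a batch was not tested. No value of the 4 members was 0, and SRX is the one nearest to it.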
